A study of Mus musculus with 9 samples.

Results

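Transglutaminase, coagulation and fibrinolysis genes were followed in mouse bone marrow (BM)-derived Mϕs. The group holds 9 of the 53379 genes in the deposited table, taken by symbol as members of these pathways with earlier results of the data known: the transglutaminases F13a1 and Tgm2, the clotting initiators F3, F7 and F10, the matrix protein gene Thbs1, and the fibrinolysis genes Plau, Plaur and Serpinb2. BM cells of C57BL/6 mice, with no genetic change named, were grown with CSF-1 at 10 ng/ml for 3 days, which turns them into Mϕs, and then for 4 days with CSF-1 at 10 ng/ml alone (control), with IL-4 at 10 ng/ml besides, or with IL-6 at 100 ng/ml besides. Sources differ on the IL-4 dose, which is therefore not settled. The methods of the paper give 100 ng/ml for IL-4 too, and its figure legends give another dose and a shorter treatment. Each condition has 3 libraries of polyadenylated RNA, numbered #1 to #3, and the column names number them m1 to m3, which is read here as 3 mice that each gave 1 culture per condition. Age and sex are not given, and no cells were sorted after culture.

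Clotting starts when tissue factor (F3), a membrane protein, binds factor VII (F7) and the pair activates factor X (F10), which in turn produces thrombin and fibrin. Factor XIII (its A subunit is encoded by F13a1) and transglutaminase 2 (Tgm2) are calcium-dependent enzymes that link proteins by glutamine-lysine bonds, fibrin in the case of factor XIII and matrix and intracellular proteins in the case of Tgm2. Fibrin is dissolved by plasmin, which urokinase (Plau) produces on the cell surface while held by its receptor (Plaur). Plasminogen activator inhibitor-2 (Serpinb2) and related serpins restrain urokinase. Monocytes and Mϕs are known sources of many of these proteins.

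Levels are in FPKM, the number of fragments scaled to the length of a gene and to the depth of its library. limma was run on log2(FPKM + 0.1) for the 12824 genes whose mean reached 0.5 FPKM, and fold changes on the log2 scale are from that fit. To pass, a gene needed a Benjamini-Hochberg adjusted p below 0.05 and at least a 2-fold change (1 on the log2 scale) in either direction. All 9 genes were above that mean. F3 passed it through the IL-4 libraries and Serpinb2 through the IL-6 libraries, so a difference was built into their selection for the test. The libraries held 29988160 to 39909571 fragments, and 3 fragments were taken as the floor. Socs3, which IL-6 induces through STAT3, was higher with IL-6 (log2 fold change 5.12, adjusted p = 3.02e-05), and Arg1, a target of IL-4, was higher with IL-4 (10.58, adjusted p = 1.95e-06). The 8 Mϕ markers examined were all present and summed to 17849 to 19908 FPKM in control, 6634 to 7281 FPKM in IL-4 and 21200 to 22481 FPKM in IL-6 libraries. Lyz2 made up most of each sum (13786 of 17962 FPKM in Control #1). Lyz2, Adgre1, Mertk, Fcgr1, Cd68, Csf1r and Mpeg1 were lower in each IL-4 library than in each control library. Itgam was higher in the IL-4 libraries (72.3, 70.7 and 37.2 FPKM against 33.7 to 36.8 FPKM in control). With IL-6, Lyz2 and Itgam were above and Cd68 below every control library, and the others overlapped. The IL-4 sum was below that of every other library, and its part in the IL-4 differences was not tested. Transcripts of 20 intestinal genes summed to 40.2 to 61.5 FPKM in the control libraries and IL-4 #1 and to 0.0139 to 0.175 FPKM in the other 5 libraries. Of 14 skeletal muscle genes, Mylpf, Acta1, Myh1, Tnnt3, Mb and Actn3 were higher in each of those 5 libraries. Mylpf had 2.21 to 5.48 FPKM there and 0.378 to 0.778 FPKM in the control libraries and IL-4 #1. Tnni2 was highest in control, and the other muscle genes did not divide the libraries in this way. This division by intestinal transcripts separates every control library from every IL-6 library. Its part in the differences between IL-6 and control cannot be told apart from that of IL-6 except through a fit with the division as a term, which rests on IL-4 #1 against IL-4 #2 and #3. Values from that fit are given as with the division of libraries as a term. For IL-4 against control, that fit compares IL-4 #1 alone with the 3 control libraries. Only log2 fold changes are therefore given from it for that comparison. In bulk RNA, a change in the number of cells of a type and a change in RNA per cell cannot be told apart.

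Of the 9 genes, 7 passed between IL-4 and control, 5 higher (Tgm2, F3, F7, F10 and Plaur) and 2 lower (F13a1 and Thbs1), where 13.9% of all tested genes passed (5.02% higher and 8.89% lower). The libraries of 7 of the 9 did not overlap, against 40.3% of tested genes. Between IL-6 and control 5 passed, 4 higher (F13a1, F10, Thbs1 and Serpinb2) and 1 lower (Plau), against 5.38% of all tested genes (3.49% higher and 1.89% lower). The libraries of 8 of the 9 did not overlap, against 43.2% of tested genes. When IL-6 was set against IL-4, 8 of the 9 passed, with F13a1, Thbs1 and Serpinb2 higher and Tgm2, F3, F7, Plau and Plaur lower with IL-6, against 20.4% of all tested genes (13.6% higher and 6.82% lower), and the libraries of all 9 were apart, against 56.9% of tested genes. The median size of the log2 fold change over the 9 genes was 2.53 for IL-4 and 1.94 for IL-6 relative to control, and over all tested genes 0.45 and 0.29. F10 was the gene that passed upward with each cytokine, and F13a1 and Thbs1 passed in opposite directions with IL-4 and IL-6. Both comparisons with control use the same control libraries. The counts include F3 and Serpinb2, which reached the filter through the libraries where they are high, so their share of these counts is no support. With a mean of at least 5 FPKM required, both are untested. Of the 7 genes that remain, 6, 4 and 6 passed in the 3 comparisons in that order, and 847, 306 and 1219 of all genes. The number of genes tested at that mean is not given here. These counts therefore have no share beside them and cannot be set against the shares above.

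**Figure D1:**
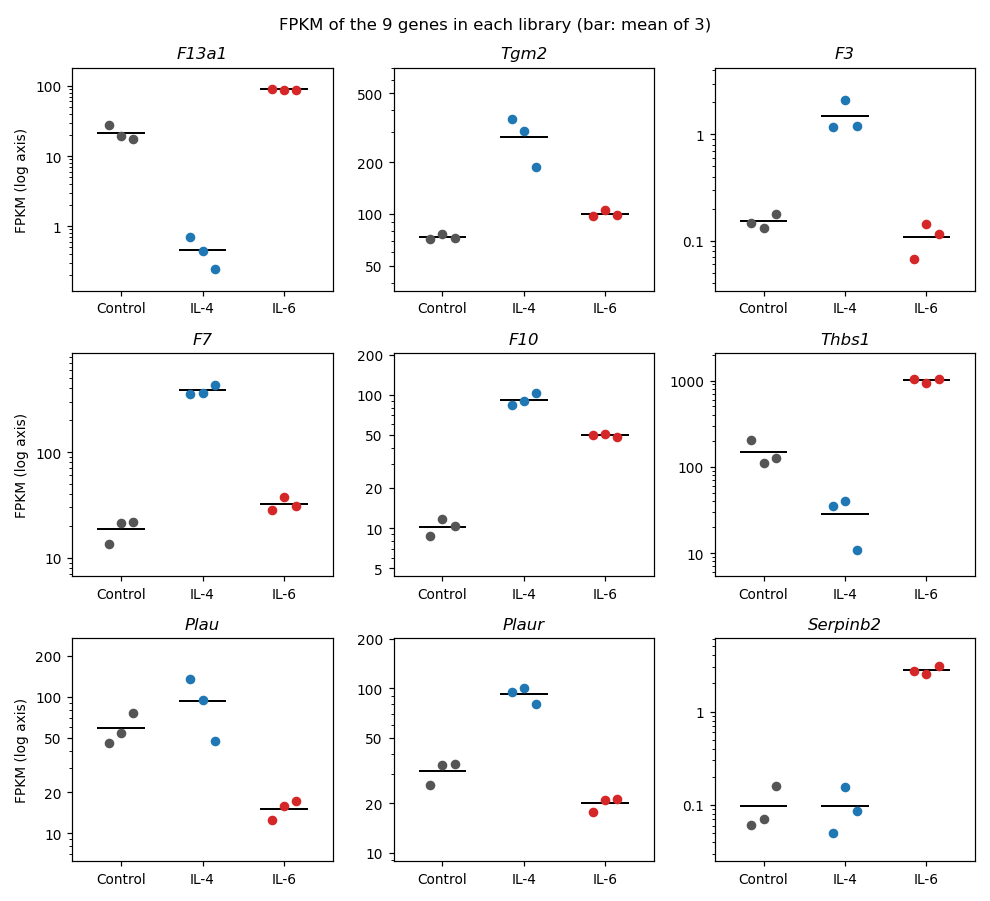
Levels of the 9 genes in FPKM (log axis) in each of the 3 control, 3 IL-4 and 3 IL-6 libraries (points, with replicates 1 to 3 from left to right) and their mean (bar). The F13a1 libraries fall into 3 separate bands, with IL-4 below 1 FPKM and IL-6 between 87.9 and 91.2 FPKM, while the F3 points of control and IL-6 overlap.

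F13a1 encodes the catalytic A subunit of factor XIII (ENSMUSG00000039109.16, GRCm38 chromosome 13, 36867178 to 37050244, minus strand). It had 27.4, 19.2 and 17.6 FPKM in the control libraries, 0.712, 0.441 and 0.242 FPKM with IL-4, and 91.2, 87.9 and 87.9 FPKM with IL-6. The 3 conditions did not overlap. The mean with IL-4 was 46.1 times lower than in control (log2 fold change −5.31, standard error 0.301, adjusted p = 1.4e-05) and with IL-6 4.16 times higher (2.08, standard error 0.301, adjusted p = 0.00475). With the division of libraries as a term the IL-6 call was kept (2.99, adjusted p = 0.0233). There IL-4 #1 against control gave a log2 fold change of −4.70. The mean with IL-6 was 192 times the mean with IL-4. The IL-4 values rest on 65 to 164 fragments per library and the IL-6 values on 18195 to 21431. By its mean level F13a1 ranked 2221 among all genes in control, 12515 in IL-4-treated and 485 in IL-6-treated Mϕs.

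Tgm2, the tissue transglutaminase (chromosome 2, 158116402 to 158146436, minus strand), went the other way with IL-4. It had 71.9, 76.3 and 72.1 FPKM in control, 353, 301 and 187 FPKM with IL-4, and 97.0, 105 and 98.7 FPKM with IL-6. IL-4 #3 was the lowest IL-4 library, and still above every IL-6 library. The mean with IL-4 was 3.82 times that of control (log2 fold change 1.88, standard error 0.213, adjusted p = 0.000479). With IL-6 the mean was 1.36 times that of control, and each IL-6 library exceeded each control library. That log2 fold change of 0.45 (95% interval −0.04 to 0.94) did not pass (adjusted p = 0.282). Without IL-4 #3 the adjusted p was 0.00728, with the log2 fold change still at 0.45. Of the stretches of 50 bases in Tgm2 transcripts, 18.7% also occur elsewhere, chiefly in the antisense gene Gm20412, which was listed at 0 FPKM in every library.

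The ratio of F13a1 to Tgm2 within a library does not depend on how libraries are scaled to each other. It was 0.381, 0.252 and 0.245 in control, 0.00202, 0.00146 and 0.00129 in the IL-4 libraries, and 0.940, 0.838 and 0.891 in the IL-6 libraries. Tgm2 was above F13a1 in every library. The mean ratio was 184 times lower with IL-4 than in control and 3.04 times higher with IL-6. Each difference had an exact permutation p = 0.1, the smallest that 3 libraries against 3 can give. A further family member, Tgm1, a membrane-bound transglutaminase best known from skin, was low and higher with IL-6 (2.06 ± 0.638 FPKM in control, SD, n = 3, and 5.84 ± 1.21 FPKM with IL-6, log2 fold change 1.48, adjusted p = 0.0131). Its IL-6 call was lost with the division of libraries as a term (1.06, adjusted p = 0.272). Tgm3 to Tgm7 were below the filter.

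**Figure D2:**
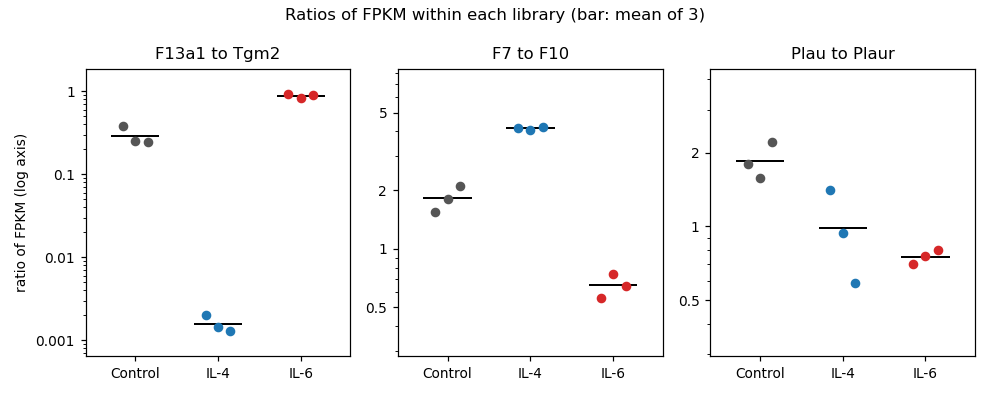
Ratios of FPKM within each library (log axes) for F13a1 to Tgm2, F7 to F10 and Plau to Plaur, with a point per library (replicates 1 to 3 from left to right) and the mean of 3 as a bar. The F13a1 to Tgm2 ratio is near 0.001 with IL-4 and near 1 with IL-6, and the F7 to F10 ratio is highest with IL-4.

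Factor VII and factor X are vitamin K-dependent proteases of the plasma, and their genes lie side by side on chromosome 8 of the mouse. F7 (13026034 to 13035809) ends 1498 bases before F10 (13037308 to 13056676) begins, both on the plus strand. F7 had 13.5, 21.3 and 21.7 FPKM in control, 350, 362 and 433 FPKM with IL-4, and 28.2, 37.8 and 31.0 FPKM with IL-6. IL-4 placed F7 among the most abundant messages, at rank 114 of all genes against rank 2492 in control. Its mean was 20.3 times that of control (log2 fold change 4.36, standard error 0.209, adjusted p = 6.32e-06). In the IL-6 libraries the mean was 1.72 times that of control, a log2 fold change of 0.80 (95% interval 0.32 to 1.28) that did not pass (adjusted p = 0.0547). With the mouse number as a block that adjusted p was 0.0391, and the log2 fold change stayed under 1.

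F10 had 8.77, 11.8 and 10.3 FPKM in control, 83.7, 88.9 and 103 FPKM with IL-4, and 50.2, 50.9 and 48.2 FPKM with IL-6. Every treated library was above every control library, and the IL-4 libraries were above the IL-6 libraries. The mean rose 8.95 times with IL-4 (log2 fold change 3.15, standard error 0.136, adjusted p = 3.19e-06) and 4.84 times with IL-6 (2.27, standard error 0.136, adjusted p = 6.51e-05). With the division of libraries as a term the IL-6 call was kept (2.08, adjusted p = 0.0131). There IL-4 #1 against control gave a log2 fold change of 3.03. IL-6 was lower than IL-4 by a log2 fold change of −0.88 (95% interval −1.19 to −0.57, adjusted p = 0.00162), which is short of the fold required. That comparison passed when each library was rescaled by its median ratio (−1.08, adjusted p = 0.00402). The neighbours differed in proportion: the ratio of F7 to F10 was 1.54, 1.81 and 2.11 in control, 4.18, 4.07 and 4.21 in the IL-4 libraries, and 0.561, 0.744 and 0.643 in the IL-6 libraries. F7 was the more abundant message in control and with IL-4, and F10 with IL-6 (exact permutation p = 0.1 for each pair of conditions).

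Tissue factor, the cell surface trigger that F7 binds, was a rare message. F3 (chromosome 3, 121723537 to 121735048) had 0.147, 0.132 and 0.180 FPKM in control from 10 to 16 fragments, 1.18, 2.13 and 1.19 FPKM with IL-4 from 102 to 163 fragments. The IL-6 libraries had 0.0681, 0.145 and 0.116 FPKM on 6 to 12 fragments. The IL-4 libraries stood apart, while control and IL-6 overlapped. The mean was 9.79 times higher with IL-4 than in control (log2 fold change 2.61, standard error 0.341, adjusted p = 0.000902), and the log2 scale with 0.1 added understates this. IL-6 differed from control by −0.28 on the log2 scale (95% interval −1.06 to 0.50, adjusted p = 0.695), so a difference was not detectable at this depth. Even with IL-4, F7 had 382 ± 44.9 FPKM against 1.5 ± 0.544 FPKM of F3 (SD, n = 3).

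Thbs1 encodes thrombospondin-1, a matrix and platelet granule protein that binds CD36 and CD47 and activates latent TGF-β (chromosome 2, 118111876 to 118127133). It had 206, 111 and 128 FPKM in control, 34.8, 39.7 and 10.9 FPKM with IL-4, and 1032, 939 and 1048 FPKM with IL-6. With IL-6 it ranked 33 among all genes by mean FPKM, from 289 in control and 1664 with IL-4. The mean was 6.78 times that of control with IL-6 (log2 fold change 2.81, standard error 0.465, adjusted p = 0.0087) and 5.22 times lower with IL-4 (−2.53, standard error 0.465, adjusted p = 0.00555). Both calls were lost with the division of libraries as a term (3.55 and adjusted p = 0.099 for IL-6, −2.04 and adjusted p = 0.0966 for IL-4). The comparison of IL-6 with IL-4 kept its call there (5.59, adjusted p = 0.000277), and within the 5 libraries of low intestinal transcripts the IL-6 mean was 39.8 times that of IL-4 #2 and #3. An antisense gene over Thbs1, Gm29233, reached 10.8 FPKM, and 1.89% of the stretches of 50 bases in Thbs1 transcripts also occur in other genes.

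Cd36, a scavenger receptor that binds thrombospondin-1, showed the opposite order. It had 311 ± 67.8 FPKM in control, 921 ± 256 FPKM with IL-4 and 27.2 ± 2.65 FPKM with IL-6 (SD, n = 3), with log2 fold changes against control of 1.54 (adjusted p = 0.00256) and −3.50 (adjusted p = 0.000171). Within a library the ratio of Thbs1 to Cd36 was 0.774, 0.400 and 0.329 in control, 0.0338, 0.0359 and 0.0173 in the IL-4 libraries, and 42.6, 33.6 and 35.7 in the IL-6 libraries. Ligand and receptor messages thus stood in opposite proportion with the cytokines, and no library overlapped between conditions. Cd47, the other receptor of thrombospondin-1 measured here, had 35.4 ± 0.157, 44.0 ± 0.647 and 41.2 ± 0.330 FPKM in control, IL-4 and IL-6, without a call.

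Urokinase and its receptor act as a pair at the cell surface. Plau (chromosome 14, 20836660 to 20843385) had 46.1, 53.9 and 76.5 FPKM in control, 135, 95.3 and 47.4 FPKM with IL-4, and 12.5, 15.7 and 17.1 FPKM with IL-6. Control and IL-4 overlapped, since IL-4 #3 lay among the control libraries, and the IL-6 libraries were below all others. The mean was 3.90 times lower with IL-6 than in control (log2 fold change −1.94, standard error 0.367, adjusted p = 0.0157). Leaving out 1 library at a time ended this call in 5 of 9 cases, those without Control #2 or #3 or without IL-6 #1, #2 or #3 (adjusted p from 0.0520 to 0.0735), and with the division of libraries as a term (−0.94, adjusted p = 0.308). The IL-4 difference of 0.56 on the log2 scale (95% interval −0.28 to 1.40) did not pass (adjusted p = 0.306). IL-6 against IL-4 gave −2.49 (adjusted p = 0.00135) and passed in all 9 of those cases.

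Plaur (chromosome 7, 24462484 to 24475968) had 25.7, 34.3 and 34.6 FPKM in control, 95.2, 101 and 80.4 FPKM with IL-4, and 17.7, 20.8 and 21.3 FPKM with IL-6. The conditions did not overlap, with IL-4 highest and IL-6 lowest. The mean with IL-4 was 2.93 times that of control (log2 fold change 1.55, standard error 0.158, adjusted p = 0.000262). IL-6 differed from control by −0.65 on the log2 scale (95% interval −1.01 to −0.29, adjusted p = 0.0415), under the fold required. The ratio of Plau to Plaur was 1.79, 1.57 and 2.21 in control, 1.41, 0.942 and 0.590 in the IL-4 libraries, and 0.703, 0.754 and 0.801 in the IL-6 libraries. It was lower than control in each treated library, and the ratios with IL-4 and IL-6 overlapped (exact permutation p = 0.6).

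Serpinb2 encodes plasminogen activator inhibitor-2, which blocks urokinase (chromosome 1, 107511423 to 107535478). It had 0.0610, 0.0710 and 0.158 FPKM in control from 5, 5 and 13 fragments, 0.0498, 0.155 and 0.0853 FPKM with IL-4 from 4, 11 and 8 fragments, and 2.71, 2.54 and 3.06 FPKM with IL-6 from 222, 195 and 221 fragments. The 6 libraries without IL-6 were near the floor, and the IL-6 libraries stood far above them. The mean was 28.7 times that of control with IL-6 (log2 fold change 3.90, standard error 0.330, adjusted p = 0.000335), while the IL-4 difference of −0.00 on the log2 scale had a 95% interval of −0.76 to 0.75 (adjusted p = 0.996). With the division of libraries as a term the IL-6 call of Serpinb2 was kept (3.36, adjusted p = 0.0391). Of the stretches of 50 bases in its transcripts, 10.4% also occur elsewhere, chiefly in the neighbouring and overlapping Serpinb10, which went from 2.07 ± 0.264 to 5.17 ± 0.665 FPKM with IL-6 (SD, n = 3, log2 fold change 1.28, adjusted p = 0.00316). That Serpinb10 call was lost with the division of libraries as a term (1.22, adjusted p = 0.132). How the authors' counting divided shared reads is not given in the sources used here. Even with IL-6, the Serpinb2 level of 2.77 FPKM was below the 15.1 FPKM of Plau.

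**Figure D3:**
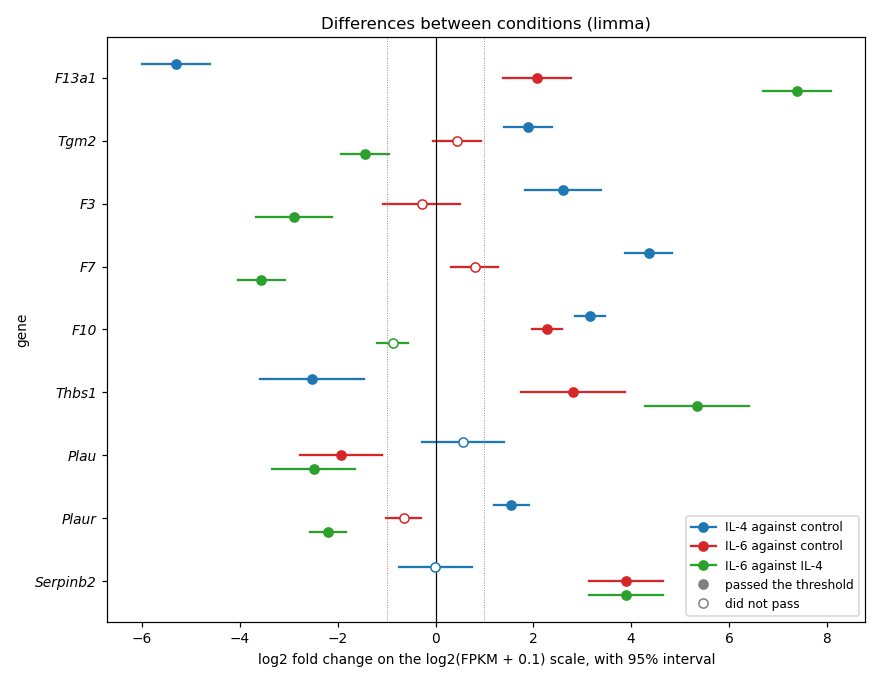
Log2 fold changes on the log2(FPKM + 0.1) scale with 95% intervals for each gene and comparison, from limma over all 9 libraries (filled points passed the threshold, open points did not, dotted lines mark a log2 fold change of 1 in size). F13a1 and Thbs1 lie on opposite sides of 0 for IL-4 and IL-6, and F10 lies above 0 for both.

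Transcripts of other cell types moved with some of these genes. The 11 megakaryocyte and platelet markers examined, among them Pf4, Ppbp and Itga2b, were all present and summed to 334 to 510 FPKM in control, 158 to 239 FPKM in IL-4 and 1264 to 2540 FPKM in IL-6 libraries. F13a1 and Thbs1 are also known as platelet proteins, and the part of these cells in their change was not tested. In IL-6 #1, #2 and #3 the sum of those markers was 1264, 1976 and 2540 FPKM, of which Pf4 had 1000, 1553 and 2042 FPKM. In the same libraries F13a1 had 91.2, 87.9 and 87.9 FPKM and Thbs1 1032, 939 and 1048 FPKM. The 8 inflammatory monocyte markers, Ly6c2 and Ccr2 among them, followed in sum the same order as F13a1 (72.0 to 91.7, 30.6 to 48.6 and 186 to 223 FPKM), and the part of monocytes was not tested. Of 7 mast cell and basophil markers, 2 were at 0 and the sum was 29.1 to 46.9 FPKM with IL-4 against 5.31 to 11.5 FPKM in control and 2.78 to 8.69 FPKM with IL-6. The 11 neutrophil markers summed to 5041 to 8892, 2227 to 4154 and 8108 to 11263 FPKM in control, IL-4 and IL-6. S100a8 and S100a9 made up most of each sum. In the IL-6 libraries S100a8, Ltf and Csf3r were above every control library. S100a9, Ngp, Mpo, Elane, Camp, Ly6g and Cxcr2 overlapped control, as did Retnlg (95.1, 166 and 195 FPKM against 181, 350 and 320 FPKM in control). The 8 fibroblast markers, another known source of F3, Tgm2 and Thbs1, stayed under 1 FPKM in sum in every library, and the 6 endothelial markers summed to 1.91 to 7.86 FPKM. Pecam1 made up most of each endothelial sum (1.80 of 1.91 FPKM in IL-4 #3 and 7.14 of 7.86 FPKM in IL-6 #3).

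Promoter sequences from RefSeq (GRCm38.p6) were found for 6 of the 9 genes: F13a1, F3, F7, F10, Plaur and Serpinb2. The 250 bases before each annotated start were searched on both strands for TGANTCA, the letters bound by AP-1, for TTCNNNGAA and its form with a spacer longer by 1 base, the spaced half-sites bound by STAT proteins, and for ACGTG, the core of a HIF site. TGANTCA stood in 6.75% of all 32851 promoter windows, and among the genes here before the first start of Serpinb2, F3 and Plaur, which are shown with the matches in capitals. It lies 94 bases before that start of Serpinb2 (181 bases before the second), 146 and 135 bases before that of F3, and 69 bases before that of Plaur.
Serpinb2 (chr1:107511173-107511422, plus strand): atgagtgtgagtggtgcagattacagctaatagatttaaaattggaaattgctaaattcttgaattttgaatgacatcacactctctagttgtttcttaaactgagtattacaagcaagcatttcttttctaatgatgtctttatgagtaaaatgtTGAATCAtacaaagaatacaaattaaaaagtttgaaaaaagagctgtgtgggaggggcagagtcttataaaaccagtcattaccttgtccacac
F3 (chr3:121723287-121723536, plus strand): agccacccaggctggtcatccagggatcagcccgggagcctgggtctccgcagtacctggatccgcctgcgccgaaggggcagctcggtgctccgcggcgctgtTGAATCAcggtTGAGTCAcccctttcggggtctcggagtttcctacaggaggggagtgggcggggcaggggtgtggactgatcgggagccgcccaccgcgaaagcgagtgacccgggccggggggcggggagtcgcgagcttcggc
Plaur (chr7:24462233-24462482, plus strand): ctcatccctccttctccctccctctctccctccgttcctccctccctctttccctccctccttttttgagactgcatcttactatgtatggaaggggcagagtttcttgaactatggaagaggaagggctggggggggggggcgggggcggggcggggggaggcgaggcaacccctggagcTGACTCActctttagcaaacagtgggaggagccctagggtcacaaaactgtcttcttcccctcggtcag
Of these 3 genes, F3 and Plaur were higher with IL-4 and Serpinb2 with IL-6. TTCNNNGAA (7.02% of all windows) was found once, 77 bases before the second annotated start of Serpinb2, and ACGTG (16.6% of all windows) once, as its reverse CACGT 45 bases before the start of F10. The form with the longer spacer (5.85% of all windows) was in none of the windows of the 6 genes. A match is a description of letters and was not tested for binding.

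Other genes of clotting and its control were taken from a list of 56, of which 24 were above the filter. Thrombin (F2), fibrinogen (Fga, Fgb and Fgg), plasminogen (Plg) and tissue plasminogen activator (Plat) were among the 32 below it, and 26 of the list had a mean under 0.1 FPKM. Of the 24, IL-4 against control called 6 higher and 1 lower, IL-6 against control 6 higher and 2 lower, and IL-6 against IL-4 6 higher and 6 lower. These are 29.2%, 33.3% and 50% of the 24, beside 13.9%, 5.38% and 20.4% of all tested genes. The median log2 fold change of the 24 was 0.12, 0.20 and 0.21, beside −0.20, −0.00 and 0.22 over all tested genes. With the division of libraries as a term, Cd36 was the call that remained of the 8 with IL-6. For the 7 with IL-4 that fit rests on IL-4 #1 alone. Its log2 fold changes were 1.75 for Vwf, 1.92 for Pros1 and 1.74 for Cd36, and the others are given below.

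Besides Cd36, Pros1, Procr, Anxa2, S100a10 and Vwf were higher with IL-4. Pros1, the protein S cofactor of the protein C pathway, went from 9.77 ± 1.19 to 30.4 ± 9.25 FPKM (log2 fold change 1.59, adjusted p = 0.00164). Procr, the protein C receptor, went from 1.40 ± 0.419 to 3.93 ± 0.631 FPKM (1.45, adjusted p = 0.00253). With the division as a term, IL-4 #1 against control gave 1.18 for Procr. Annexin A2 and its partner S100a10 form a cell surface receptor for plasminogen. Anxa2 went from 119 ± 25.8 to 343 ± 104 FPKM (1.51, adjusted p = 0.00275) and S100a10 from 66.4 ± 11.9 to 216 ± 105 FPKM (1.61, adjusted p = 0.00565). In the same fit IL-4 #1 against control gave 1.14 for Anxa2 and 1.21 for S100a10. Vwf, the platelet-binding von Willebrand factor, went from 6.36 ± 1.24 to 17.6 ± 5.73 FPKM (1.42, adjusted p = 0.00704). Serpine2, which encodes an inhibitor of thrombin and urokinase, was lower (−1.01, adjusted p = 0.014). With the division as a term, IL-4 #1 against control gave −0.94, under the fold required.

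With IL-6, the higher genes besides Tgm1 and Serpinb10 were F5, the cofactor of factor X (1.70 ± 0.518 to 9.43 ± 1.13 FPKM, log2 fold change 2.43, adjusted p = 0.00578), the thrombin receptors F2rl2 (1.74, adjusted p = 0.0136) and F2rl3 (1.86, adjusted p = 0.0119), and Serpine2 (1.06, adjusted p = 0.0275). Serpinb6a, an intracellular serpin, was lower besides Cd36 (127 ± 23.2 to 46.5 ± 3.94 FPKM, −1.44, adjusted p = 0.024). With the division as a term these calls were lost, at adjusted p = 0.107 for F5, 0.121 for F2rl2, 0.0541 for F2rl3, 0.232 for Serpine2 and 0.0932 for Serpinb6a, with log2 fold changes of 2.84, 2.24, 2.72, 1.17 and −2.13. Vkorc1, the vitamin K reductase that the maturation of F7 and F10 needs, was lower with IL-6 than with IL-4 (8.63 ± 0.913 against 22.1 ± 8.61 FPKM, −1.28, adjusted p = 0.00556), without a call against control. Plgrkt, a plasminogen receptor, and Lrp1, which clears complexes of proteases and serpins, had no call in any comparison, at mean levels of 19.6 to 24.6 and 75.0 to 82.2 FPKM. F2rl3 and Vwf are among those also known from platelets, whose markers are given above. The part of platelets in the change of any listed gene, F5 and F2rl2 included, was not tested.

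**Figure D4:**
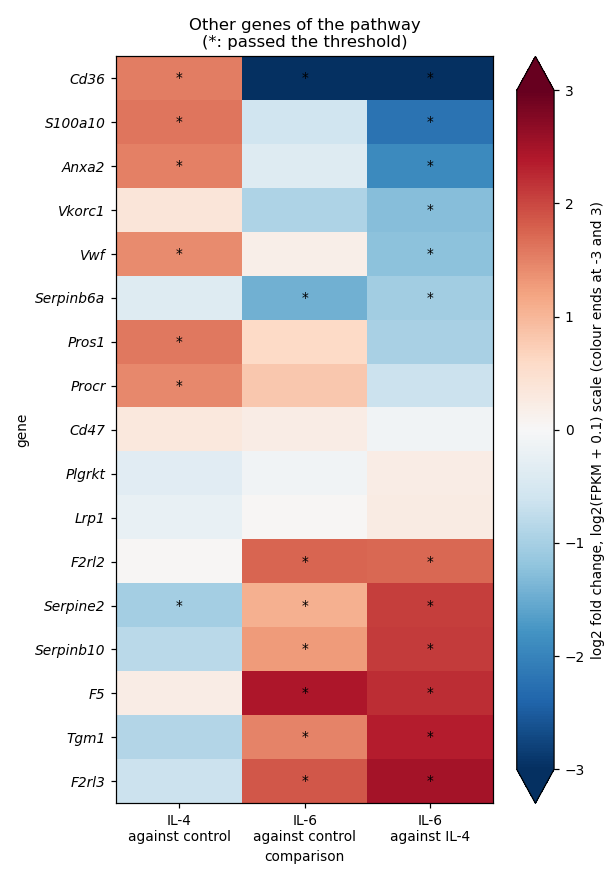
Log2 fold changes on the log2(FPKM + 0.1) scale of the listed genes above the filter that passed in any comparison or had a mean of at least 10 FPKM, in rows ordered by IL-6 against IL-4, for the 3 comparisons (red higher, blue lower, colour ends at −3 and 3, asterisk passed the threshold). Cd36 (−5.04) and F2rl3 (2.50) are at the ends of the order for IL-6 against IL-4.

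The 3 genes whose levels ran most alike to each of the 9 over the 9 libraries were taken by Pearson's r on log2(FPKM + 0.1), as a description, since all genes share the same libraries. For F13a1 they were Aoah (0.998), Ccdc88b (0.997) and Zmynd15 (0.997). For Thbs1 they were Bnip3 (0.998), Adamtsl4 (0.997) and Abca7 (0.995), and for Serpinb2 Nrg1, Cd38 (each 0.990) and Traf1 (0.989). F7 ran with Ctss (0.999), Chil3 (0.998) and Tuba8 (0.997), F10 with Cd47 (0.991), Ripk3 (0.989) and Srgn (0.988), and F3 with Inpp5a (0.994), Nop58 (0.992) and Cdv3 (0.990). Tgm2 ran with Flt1 (0.994), Pcdh7 (0.991) and Gpc1 (0.990), Plaur with Atp6v1b2 (0.998), Nes (0.995) and Cct6a (0.995), and Plau with Plekhf2 (0.996), Tmem206 (0.993) and Smpd3 (0.991). Among the 9 genes themselves r was highest between F3 and Plaur (0.965), between F13a1 and Thbs1 (0.950) and between Tgm2 and F7 (0.947), and lowest between F13a1 and Plaur (−0.981).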

How the data were processed

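RNA-seq values of 9 libraries of BM-derived Mϕs were analysed, in 3 conditions of 3 libraries. The FPKM were deposited by the authors. The methods name STAR 2.4.2a, GRCm38 and Cufflinks 2.2.1 with GENCODE M5. Of the 53379 identifiers, 50604 matched GENCODE M21 with their version (94.8%), and symbols and coordinates are from M21 on GRCm38. Low values (up to 60 fragments) were whole multiples of 1 fragment over the exon length within 0.05 in 100.0% of 94810 cases, from which fragments per library were read back, and the floor of 3 fragments covers counting error only. Such steps are what a read counter gives with M21 exon lengths and not what the named Cufflinks and M5 would be taken to give, so which program and annotation made the values is open.

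FPKM were tested as log2(FPKM + 0.1) with limma (version 3.58.1, R 4.3.3), fitting the 3 groups jointly, with the trend and robust options and Benjamini-Hochberg adjustment over the 12824 genes with a mean of at least 0.5 FPKM. The fit was also run on simulated data with the same dispersion for all genes and no division of libraries. That run cannot show how the fit does with the division, and its outcome is not given here. Single ratios were compared by two-sided exact permutation tests. Folds are ratios of mean FPKM. The members, gene lists and the alternatives (pseudocount, filter, scaling, block, set of libraries, voom, variance options and left-out libraries) were chosen with earlier results of these data known. Named are the 9 genes, listed genes that passed in any comparison or had a mean of at least 10 FPKM, the 3 genes most alike to each of the 9, Socs3 and Arg1. A result of 1 listed gene is not reported here. Promoters are the 250 bases before RefSeq starts. Tables and plots used matplotlib 3.10.9, pandas 2.3.3 and numpy 2.4.6 under Python 3.11.15.

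The column names give the same mouse number in each condition, from which the pairing comes. Correlations of deviations from the group means for mice 1 to 3 were 0.521, −0.415 and 0.0777 for control with IL-4, 0.408, 0.201 and 0.166 for control with IL-6, and 0.281, −0.0612 and 0.153 for IL-4 with IL-6.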

Additional observations from a re-analysis of the deposited data

How the results depend on the processing

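Of 561 values of the 9 genes under the alternatives, 545 kept their direction and their side of the threshold, 8 fell short of it, 3 newly passed and 5 changed sign without passing. The changes of sign were all of Serpinb2 for IL-4 against control, which was −0.00 (standard error 0.330) without a call. A value smaller than its standard error has no direction, so these are not reversals. This log2 fold change became 0.094 with median-ratio rescaling and 0.50 with quantile normalization. Leaving out 1 library at a time gave −0.21 to 0.21, above 0 without Control #3 (0.21), IL-4 #1 (0.18) or IL-4 #3 (0.023). With the library set (intestinal transcripts high or low) as a term, the number of the 9 genes that passed between IL-6 and control was 3 in place of 5, since Thbs1 and Plau were lost, and the counts over all genes were 187 in place of 690 for IL-6 and 1111 in place of 1784 for IL-4 against control. Leaving out 1 library at a time gave 387 to 1001 genes for IL-6 against control: 387 without Control #3, 408 without IL-6 #3, 424 without IL-6 #2, 445 without Control #2 and 1001 without IL-4 #3. The number of the 9 genes that passed there was 4 or 5. A mean of at least 5 FPKM tests fewer genes and gave 847, 306 and 1219 genes for IL-4 against control, IL-6 against control and IL-6 against IL-4, and left F3 and Serpinb2 untested. An adjusted p under 0.05 alone gave 3186, 1077 and 4375. Median-ratio rescaling moved the median log2 fold change of all genes for IL-4 against control from −0.20 to −0.01, and the split of calls from 644 higher and 1140 lower to 834 and 874. For IL-6 against IL-4 the split went from 1738 higher and 875 lower to 1398 and 1165. The replicate block on the mouse number changed no call of the 9 genes (Plau with IL-6 against control had an adjusted p of 0.0455 there) and gave 1788, 656 and 2734 genes for IL-4 against control, IL-6 against control and IL-6 against IL-4. F3 and Serpinb2 rest on few fragments in most libraries, which limits the precision of their folds.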
